A study of Mus musculus with 9 samples.

Results

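The genes described here are 45 genes of the autophagy machinery and its cargo receptors, followed by step from initiation to fusion with the lysosome. They were chosen by gene symbol, through the Ensembl identifiers of GENCODE M21; the rule uses no measured value, but the list was drawn up with earlier results of these data known. They are 45 of the 57180 identifiers in the count table, and all 45 were among the 13405 genes that passed the expression filter and were tested.

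The libraries came from Lgr5-GFP+ intestinal stem cells of the mouse small intestine, sorted by flow cytometry. KANSL1, the deleted protein, is a scaffold of the NSL histone acetyltransferase complex. In KO day 4 and KO day 3, Lgr5-EGFP-CreERT2; Kansl1 f/f mice had tamoxifen daily for 4 or 3 days, and the controls, labelled KANSL1-WT and called WT here, had corn oil. Each group had 3 libraries, and the labels do not say whether these came from separate animals. The Lgr5-EGFP-CreERT2 allele puts the fluorescent label and a Cre that tamoxifen activates under Lgr5, so recombination is driven in the same stem cells that the sort selects. Every KO library had tamoxifen and no WT library did, so the knockout and the drug cannot be told apart. Days after the first dose and the number of doses cannot be told apart between KO day 4 and KO day 3 either.

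Autophagy encloses cytoplasm or organelles in a new membrane vesicle, the autophagosome, which then fuses with a lysosome. The ULK kinase complex starts it, the class III PI3-kinase complex makes the lipid PI3P on the forming membrane, and PI3P-binding proteins and lipid carriers enlarge that membrane. A ubiquitin-like conjugation system attaches the ATG8 proteins (the LC3 and GABARAP families) to it, cargo receptors such as p62 (gene Sqstm1) tie cargo to ATG8, and SNARE proteins carry out the fusion. In the intestinal epithelium, autophagy genes are known for roles in stem cell maintenance and in Paneth cell granules.

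Totals ranged from 11174583 to 16943055 counts in KO day 4 libraries, from 8400458 to 21484679 in KO day 3 libraries and from 12164479 to 17913787 in WT libraries. Mitochondrially encoded genes took 69.4% ± 2.63 of counts at KO day 4, 27.3% ± 7.32 at KO day 3 and 20.03% ± 5.08 in WT (SD, n = 3 each). The 45 genes together held 5461 to 8572 counts in KO day 4 libraries, 9347 to 20503 in KO day 3 libraries and 20298 to 29297 in WT libraries. Reads over the whole Kansl1 gene gave 2.93, 5.09 and 8.96 CPM (counts scaled to a common library size) in KO day 4 libraries, 2.81, 2.99 and 2.55 CPM in KO day 3 libraries and 4.46, 11.4 and 9.83 CPM in WT libraries. The KO day 4 values overlap those of WT and the labels do not name the deleted exons, so these reads do not settle how far the deletion went. The 10 stem cell markers summed to 2809 to 7707 CPM of nuclear genes at KO day 4, 12814 to 18553 at KO day 3 and 19033 to 22950 in WT. The 8 Paneth cell markers summed to 93888 to 116835 CPM at KO day 4, 24953 to 40245 at KO day 3 and 15963 to 38151 in WT. The 10 mast cell markers summed to 448 to 1263 CPM at KO day 4, 21.9 to 192 at KO day 3 and 0.10 to 0.572 in WT, where Fcer1a, Mcpt1, Mcpt2, Ms4a2 and Tpsab1 had 0 counts. The 11 other immune markers summed to 58.6 to 162 CPM at KO day 4, 7.75 to 38.6 at KO day 3 and 3.30 to 7.60 in WT. The 7 goblet cell markers summed to 2991 to 5045 CPM at KO day 4, 1741 to 2397 at KO day 3 and 1675 to 2092 in WT, and the 8 enteroendocrine markers to 313 to 451 CPM at KO day 4, 86.9 to 158 at KO day 3 and 38.4 to 117 in WT. The 7 stromal markers summed to 37.6 to 70.3 CPM at KO day 4, 7.05 to 14.8 at KO day 3 and 2.40 to 5.80 in WT, and the 8 enterocyte markers to 130 to 149 CPM at KO day 4, 192 to 483 at KO day 3 and 232 to 290 in WT. The 7 tuft cell markers summed to 134 to 349 CPM at KO day 4, 12.3 to 22.3 at KO day 3 and 6.72 to 8.66 in WT. At KO day 4 all these sums, each in CPM of nuclear genes, and the mitochondrial share lay apart from both other groups. Between KO day 3 and WT the Paneth, goblet, enteroendocrine and enterocyte sums overlapped, as did the mitochondrial share, and the other sums lay apart. The part of these shifts in the autophagy genes' values was not tested. The sorted cells were sequenced in bulk, so fewer cells of a type and less RNA per cell cannot be told apart.

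At KO day 4, 7 of the 45 genes passed the test against WT, which is 15.6% of them, against 22.5% of all tested genes (11.1% higher and 11.5% lower). Sqstm1, Gabarapl1 and Tecpr1 were higher, and Pik3c3, Pik3r4, Atg14 and Vamp8 were lower. At KO day 3 none of the 45 passed by edgeR, where 0.44% of all tested genes did (0.142% higher and 0.298% lower). An unadjusted p under 0.05 was found there for 12 of the 45, beside 2123 of all 13405 tested genes (15.8%). DESeq2 called 5 of the 45 at KO day 3, all lower, and 6.53% of all tested genes (393 genes higher and 483 lower). limma voom called 8, all lower, and 10.6% of all tested genes (481 genes higher and 942 lower). Between KO day 4 and KO day 3, 5 genes passed (11.1%, against 12.5% of all tested genes, 6.52% higher and 6.03% lower), and all 5 were higher at KO day 4: Sqstm1, Gabarapl1, Tecpr1, Atg7 and Atg2a. Levels are CPM of library sizes scaled by TMM, a method that sets the bulk of genes equal between libraries, and each log2 fold change is given with its standard error (SE). With library size alone, the median of all tested genes shifts by -1.95 at KO day 4, and 39 of the 45 genes are then called against WT, 1 higher and 38 lower, beside 82.5% of all tested genes. With library size alone, 30 are called between KO day 4 and KO day 3, 1 higher and 29 lower, beside 70.9% of all tested genes, whose median is -1.54. Except with library size alone, the directions given for genes are relative to that bulk of genes. The marker sums above are CPM of nuclear genes without TMM, so they are not relative to it.

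The median log2 fold change of the 45 genes was -0.12 at KO day 4 against WT, beside -0.06 over all tested genes. At KO day 3 it was -0.25, beside -0.02 over all tested genes. There 35 of the 45 estimates were negative, beside 6888 of all 13405 tested genes. Between KO day 4 and KO day 3 it was 0.27, beside -0.02. At KO day 4 the 3 libraries lay all above WT in 6 genes and all below it in 11 (37.8% in all), against 47.0% of all tested genes, with 20.6% of them above and 26.4% below. At KO day 3 no gene lay all above WT and 17 lay all below it (37.8%), against 30.1% of all tested genes, with 12.1% of them above and 18.0% below. KO day 4 lay all above KO day 3 in 8 genes and all below in 2 (22.2%), against 32.8% of all tested genes, with 15.8% of them above and 17.0% below.

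**Figure D1:**
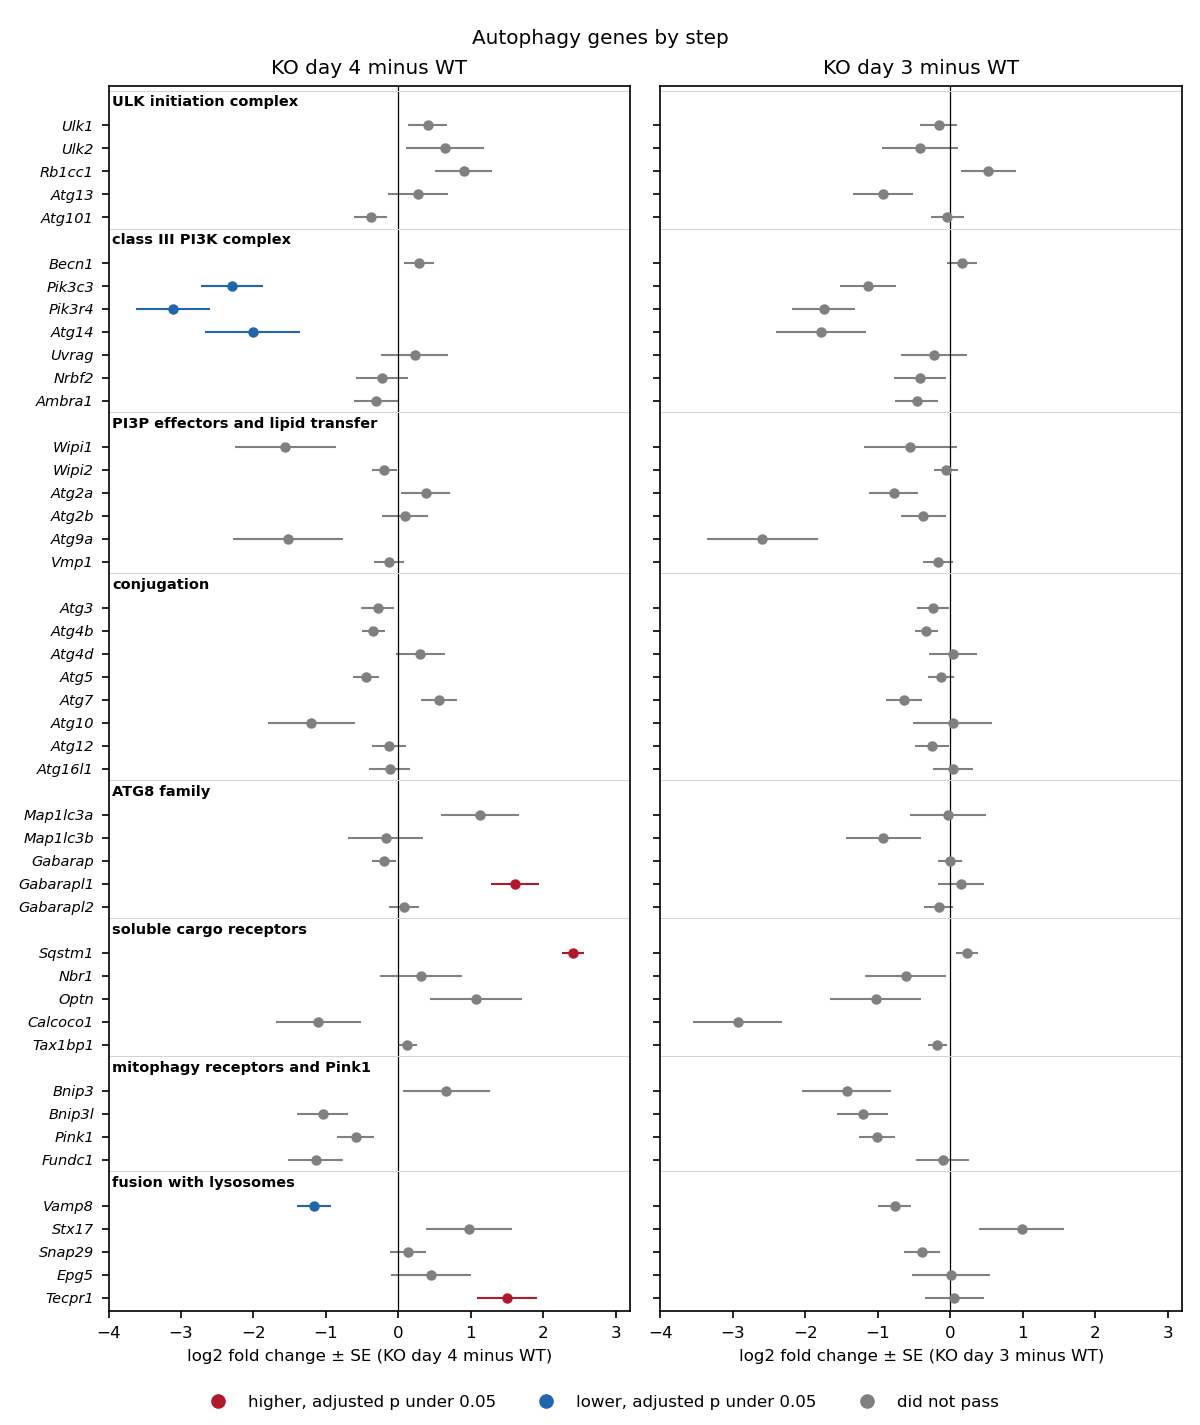
Log2 fold change with its SE (x axis) for each of the 45 genes (y axis, by step), with KO day 4 minus WT on the left and KO day 3 minus WT on the right, where both share the WT libraries. At KO day 4, 3 genes are coloured as higher and 4 as lower (Gabarapl1 and Tecpr1 turn negative with library size alone). At KO day 3 none is coloured, and 35 of 45 points lie left of 0, beside 6888 of all 13405 tested genes.

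The promoters of 4 called genes are shown because they hold the sequence next to the strongest calls: the 2 lower and the 2 higher genes with the smallest adjusted p at KO day 4 that had a RefSeq entry, Pik3c3 aside. Each runs 5′ to 3′ on the gene's strand up to the base before its first annotated exon, on GRCm38.p6, from RefSeq. Capitals mark the CCAAT box (CCAAT or, on the other strand, ATTGG) and the GC box (GGGCGG or CCGCCC). They are Pik3r4 (chr9:105642745-105642977, plus strand, 233 bases), Vamp8 (chr6:72390704-72390917, minus strand, 214 bases), Sqstm1 (chr11:50210828-50211070, minus strand, 243 bases) and Gabarapl1 (chr6:129532942-129533159, plus strand, 218 bases).
Pik3r4: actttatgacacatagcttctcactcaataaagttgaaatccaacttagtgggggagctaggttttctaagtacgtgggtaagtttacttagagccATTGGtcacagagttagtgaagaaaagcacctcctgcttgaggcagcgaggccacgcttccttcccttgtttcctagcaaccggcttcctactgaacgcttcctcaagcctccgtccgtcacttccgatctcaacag
Vamp8: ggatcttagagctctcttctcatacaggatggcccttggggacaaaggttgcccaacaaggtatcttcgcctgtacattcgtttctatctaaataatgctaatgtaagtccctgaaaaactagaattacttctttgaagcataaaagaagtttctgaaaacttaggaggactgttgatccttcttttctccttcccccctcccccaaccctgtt
Sqstm1: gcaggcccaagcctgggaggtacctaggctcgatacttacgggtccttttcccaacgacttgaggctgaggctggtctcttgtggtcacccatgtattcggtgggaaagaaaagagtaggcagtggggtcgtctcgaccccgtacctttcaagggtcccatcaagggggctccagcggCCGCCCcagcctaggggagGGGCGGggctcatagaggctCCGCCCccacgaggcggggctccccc
Gabarapl1: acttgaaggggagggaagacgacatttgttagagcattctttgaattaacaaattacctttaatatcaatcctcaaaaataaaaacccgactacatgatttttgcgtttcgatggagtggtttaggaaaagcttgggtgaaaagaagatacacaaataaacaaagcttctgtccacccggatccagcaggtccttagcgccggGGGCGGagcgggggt

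The Pik3r4 window held 1 CCAAT box and no GC box, and the Vamp8 window neither. The Sqstm1 window held 3 GC boxes and the Gabarapl1 window 1. RefSeq promoters were matched for 37 of the 45 genes. In the 250 bases before the start, on both strands, GGGCGG was in 22 of the 37 (59.5%), against 32.7% of 32851 promoters, and CCAAT in 9 (24.3%), against 33.8%. CACGTG, the core of the CLEAR element bound by TFEB, was in 5 (Atg3, Atg5, Atg7, Bnip3 and Nrbf2; 13.5%), against 6.02%. TGACNNNGC, the core of the antioxidant response element bound by NRF2, was in 5 (Atg13, Nrbf2, Tax1bp1, Ulk2 and Vmp1), against 10.2%. TGANTCA (AP-1, which can overlap TGACNNNGC) and TGACGTCA (CRE) were in none, against 6.75% and 1.55%. A match is a description of the letters, and a missing match says only that the letters are not in this window.

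The class III PI3-kinase complex had 3 of its 7 genes lower at KO day 4 (42.9%, against 11.5% of all tested genes lower). These are the lipid kinase Vps34 (Pik3c3), its regulatory subunit Vps15 (Pik3r4) and Atg14, the subunit that directs the complex to forming autophagosomes. The genes were chosen with earlier results of these data known, which included Pik3c3 and Pik3r4, so the count is not an independent finding about the complex.

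Pik3r4 (ENSMUSG00000032571, chromosome 9, 105642978 to 105687657, plus strand) had 1.64, 0.477 and 1.34 CPM in KO day 4 libraries, 1.45, 3.64 and 3.79 CPM in KO day 3 libraries and 9.90, 10.8 and 9.61 CPM in WT libraries. Every KO library of both days lay below every WT library, and KO day 4 overlapped KO day 3. Against WT, its log2 fold change was -3.11 at KO day 4 (SE 0.51, edgeR adjusted p = 0.0021) and -1.75 at KO day 3 (SE 0.44, edgeR adjusted p = 0.095). The raw counts behind the KO day 4 values were 14, 3 and 6, which limits their precision.

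Pik3c3 (ENSMUSG00000033628, chromosome 18, 30272747 to 30348126, plus strand) had 7.27, 2.70 and 2.02 CPM in KO day 4 libraries, 6.65, 13.1 and 8.05 CPM in KO day 3 libraries and 21, 20.0 and 20.3 CPM in WT libraries. The WT libraries lay close together and above all 6 KO libraries. The log2 fold change against WT was -2.29 at KO day 4 (SE 0.43, edgeR adjusted p = 0.0041), -1.13 at KO day 3 (SE 0.39, edgeR adjusted p = 0.19) and -1.16 between KO day 4 and KO day 3 (edgeR adjusted p = 0.092).

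Atg14 (ENSMUSG00000037526, chromosome 14, 47540893 to 47570649, minus strand) had 2.70, 1.91 and 0.448 CPM in KO day 4 libraries, 1.02, 4.03 and 1.10 CPM in KO day 3 libraries and 7.92, 8.33 and 5.16 CPM in WT libraries. Again no KO library reached the lowest WT library. Against WT, the log2 fold change was -2.01 at KO day 4 (SE 0.66, edgeR adjusted p = 0.048), a call that was lost without KO day 4 replicate 2 (0.10) or 3 (0.096) and without any of the WT libraries (0.076 to 0.13). In all, that call was lost in 7 of 18 alternatives, among them limma voom (adjusted p = 0.064) and the fit without KO day 4 replicate 3 and KO day 3 replicate 1 (edgeR adjusted p = 0.055). At KO day 3 the log2 fold change was -1.78 (SE 0.62, edgeR adjusted p = 0.20).

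The other members of the complex did not pass in any comparison. Becn1, the Beclin 1 scaffold, averaged 51.1 ± 4.03 CPM at KO day 4, 47.0 ± 5.40 CPM at KO day 3 and 41.9 ± 11.2 CPM in WT (SD, n = 3 each). Its exons share 43.9% of their length with those of Cntd1 on the other strand, so its reads and those of Cntd1 cannot be told apart. Uvrag, the subunit that takes the place of Atg14 in the endosomal form of the complex, had log2 fold changes of 0.23 at KO day 4 and -0.23 at KO day 3. The complex's regulators Nrbf2 (-0.22 and -0.42) and Ambra1 (-0.31 and -0.46) had all 3 KO day 3 libraries below WT without passing the test.

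**Figure D2:**
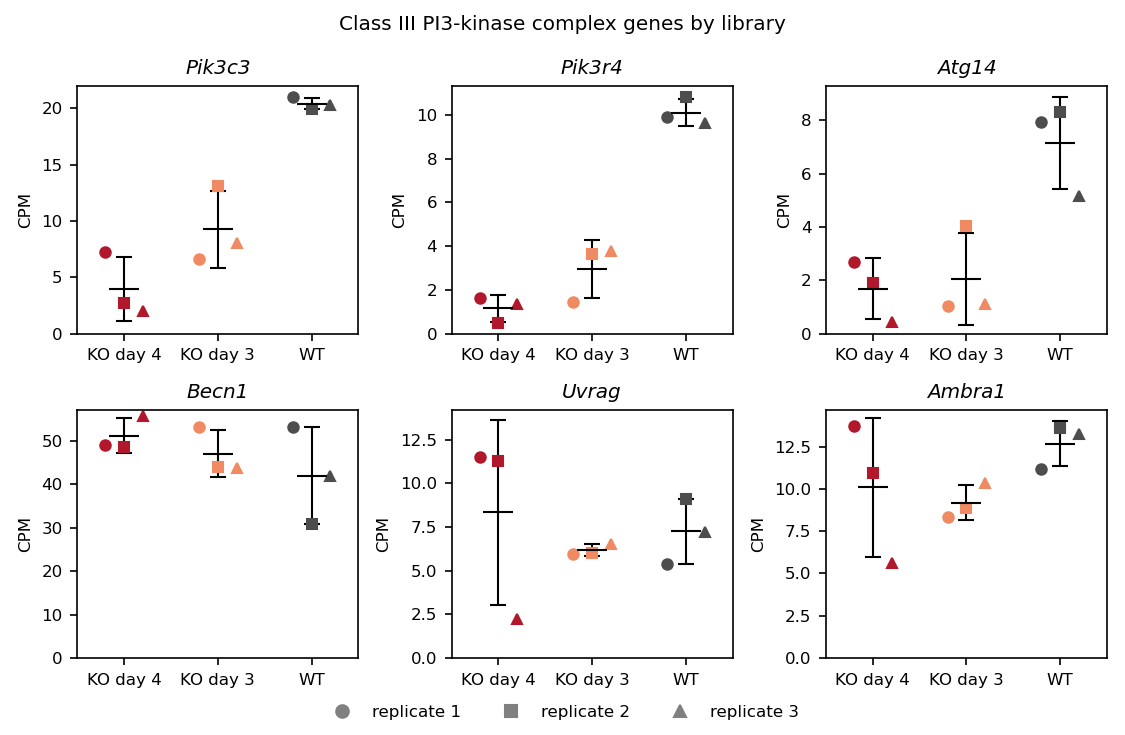
Levels in CPM (y axis, linear from 0) of 6 genes of the class III PI3-kinase complex in the 3 libraries of KO day 4, KO day 3 and WT (marker shape gives the replicate; line and bars give mean ± SD). Pik3c3, Pik3r4 and Atg14 have all 6 KO libraries below the WT libraries, while Becn1, Uvrag and Ambra1 overlap WT at KO day 4.

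Among soluble cargo receptors, Sqstm1 was the member that passed. Sqstm1 (ENSMUSG00000015837, chromosome 11, 50199366 to 50210827, minus strand) encodes p62, which binds ubiquitinated cargo and ATG8 proteins. It had 205, 227 and 251 CPM in KO day 4 libraries, 57.1, 45.6 and 47.9 CPM in KO day 3 libraries and 42.2, 46.1 and 40.1 CPM in WT libraries. Each KO day 4 library was more than 3-fold above every other library, and KO day 3 overlapped WT. Its log2 fold change was 2.41 at KO day 4 against WT (SE 0.16, edgeR adjusted p = 2.5e-05) and 2.18 against KO day 3 (SE 0.16, edgeR adjusted p = 7.4e-05), and at KO day 3 against WT it was 0.23 (SE 0.15, edgeR adjusted p = 0.51). With TMM scaling the rise at KO day 4 was 5.32-fold against WT, and its size depends on the scaling: with library size alone the log2 fold change was 0.50 against WT (SE 0.21, edgeR adjusted p = 0.040) and 0.64 against KO day 3 (SE 0.21, edgeR adjusted p = 0.015). Sqstm1 shares 580 exon bases with Mrnip on the other strand, and Mrnip had 0 to 0.318 CPM in KO day 4 libraries, 1.17 to 2.30 CPM in KO day 3 libraries and 2.56 to 4.62 CPM in WT libraries.

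The other soluble receptors differed from Sqstm1 in pattern. Tax1bp1, a ubiquitin-binding receptor, had 92.7 to 99.6 CPM at KO day 4, 75.1 to 83.8 CPM at KO day 3 and 81.2 to 92.6 CPM in WT. Its within-group spread was lower than in all but 0.649% of the tested genes at or above a minimum mean CPM, given with the spreads below. Its log2 fold change at KO day 4 was 0.13 (SE 0.13, edgeR adjusted p = 0.53). Calcoco1, a receptor for endoplasmic reticulum and Golgi, had 0.820, 3.02 and 4.25 CPM in KO day 4 libraries, 0.938, 0.954 and 0.354 CPM in KO day 3 libraries and 5.40, 6.68 and 4.81 CPM in WT libraries. All 6 KO libraries lay below WT, and the lowest group was KO day 3 rather than KO day 4. Its log2 fold change was -1.10 at KO day 4 (edgeR adjusted p = 0.20) and -2.93 at KO day 3 (SE 0.62, edgeR adjusted p = 0.067). It was singled out after its values were seen, and its KO day 3 difference passed in 8 of 18 alternatives, among them DESeq2 (adjusted p = 0.00024).

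Optn, a receptor for ubiquitinated mitochondria and bacteria, had 5.63 to 13.0 CPM at KO day 4, 0.256 to 4.29 CPM at KO day 3 and 4.53 to 5.20 CPM in WT. All KO day 4 libraries were above WT and all KO day 3 libraries below it, but the log2 fold change between KO day 4 and KO day 3 (2.10, SE 0.65) had an edgeR adjusted p of 0.058. Nbr1, which binds ubiquitin beside p62, had 43.1, 24.0 and 35.4 CPM in KO day 4 libraries, 3.58, 32.6 and 17.3 CPM in KO day 3 libraries and 17.2, 37.5 and 27.6 CPM in WT libraries. Its groups overlap throughout, and its spread within groups exceeded that of 97.8% of the tested genes at or above the same minimum mean CPM.

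The ATG8 family had 1 of its 5 genes higher at KO day 4 (20.0%, against 11.1% of all tested genes higher). Gabarapl1 (ENSMUSG00000030161, chromosome 6, 129533160 to 129542346, plus strand) had 38.1, 26.2 and 59.6 CPM in KO day 4 libraries, 9.81, 14.5 and 20.3 CPM in KO day 3 libraries and 15.3, 13.2 and 11.9 CPM in WT libraries. All KO day 4 libraries lay above all the others, and KO day 3 spread to both sides of WT. The log2 fold change was 1.61 at KO day 4 against WT (SE 0.33, edgeR adjusted p = 0.0062; -0.30 with library size alone) and 1.46 against KO day 3 (SE 0.33, edgeR adjusted p = 0.017; -0.08 with library size alone), and at KO day 3 against WT it was 0.15. Without KO day 4 replicate 3 the value against KO day 3 was 1.10 with an edgeR adjusted p of 0.055, and without KO day 3 replicate 2 it was 1.44 with 0.062. Without both KO day 4 replicate 3 and KO day 3 replicate 1 it was 0.89 with 0.056. Gabarapl1 shares 570 exon bases (28.3%) with 1700101I11Rik on the other strand. That neighbour had 0 CPM in every KO library and 0.066 to 0.090 CPM in WT libraries.

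Gabarap, the founding GABARAP gene, averaged 80.9 ± 12.5 CPM at KO day 4, 92.1 ± 13.5 CPM at KO day 3 and 92.3 ± 6.59 CPM in WT (SD, n = 3 each), and Gabarapl2 had log2 fold changes of 0.08 at KO day 4 and -0.16 at KO day 3. Map1lc3a, an LC3 gene, had a log2 fold change of 1.13 at KO day 4 (SE 0.54, edgeR adjusted p = 0.15). Map1lc3b, the LC3 most used as an autophagosome marker, had 15.0, 41.0 and 36.7 CPM in KO day 4 libraries, 33.0, 12.0 and 10.4 CPM in KO day 3 libraries and 16, 46.7 and 41.2 CPM in WT libraries. In each group 1 library stood apart from the other two, and the log2 fold changes were -0.17 at KO day 4 and -0.92 at KO day 3, neither past the test.

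In the fusion step, 1 gene was lower and 1 higher at KO day 4 (40.0% of its 5 genes, against 22.5% of all tested genes). Vamp8 (ENSMUSG00000050732, chromosome 6, 72385223 to 72390703, minus strand), a SNARE of the lysosome and of secretory granules, had 18.9, 18.8 and 21.3 CPM in KO day 4 libraries, 34.1, 24.7 and 18.8 CPM in KO day 3 libraries and 47.2, 47.1 and 37.5 CPM in WT libraries. All 6 KO libraries lay below WT, and KO day 3 reached down to the KO day 4 range. For Vamp8 the log2 fold change was -1.16 at KO day 4 (SE 0.23, edgeR adjusted p = 0.0055) and -0.77 at KO day 3 (SE 0.22, edgeR adjusted p = 0.13).

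Tecpr1 (ENSMUSG00000066621, chromosome 5, 144194442 to 144223615, minus strand), a lysosomal tethering protein that binds ATG12-ATG5, had 23.1, 12.4 and 48.8 CPM in KO day 4 libraries, 13.6, 7.89 and 9.32 CPM in KO day 3 libraries and 10.5, 9.22 and 9.79 CPM in WT libraries. KO day 4 lay above WT in 3 of 3 libraries, and replicate 2 was within the KO day 3 range. For Tecpr1 the log2 fold change was 1.5 at KO day 4 against WT (SE 0.41, edgeR adjusted p = 0.024; -0.43 with library size alone) and 1.45 against KO day 3 (SE 0.41, edgeR adjusted p = 0.043; -0.15 with library size alone). Without KO day 4 replicate 3 these were 0.85 (edgeR adjusted p = 0.079) and 0.80 (edgeR adjusted p = 0.14). The call against WT was also lost without any of the WT libraries (adjusted p 0.066 to 0.081), and the call against KO day 3 was lost, with the direction kept, in 10 of 19 alternatives.

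Stx17, the autophagosomal SNARE, had 8.91, 14.3 and 4.03 CPM in KO day 4 libraries, 9.55, 9.19 and 8.93 CPM in KO day 3 libraries and 1.63, 2.84 and 9.57 CPM in WT libraries. Its log2 fold change against WT was 0.98 at both times (edgeR adjusted p = 0.26 at KO day 4 and 0.45 at KO day 3), and its groups overlap. Its partner Snap29 (0.13 at KO day 4 and -0.39 at KO day 3) and the tether Epg5 (0.45 and 0.01) did not pass either.

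The conjugation and lipid transfer steps had no gene past the test against WT at either day, but 1 gene each differed between the KO days. That is 12.5% and 16.7% of their genes, against 12.5% of all tested genes. Atg7 (ENSMUSG00000030314, chromosome 6, 114643097 to 114860614, plus strand), the enzyme that activates ATG12 and ATG8, had 14.9, 15.1 and 24.0 CPM in KO day 4 libraries, 8.19, 7.54 and 7.66 CPM in KO day 3 libraries and 13.5, 10.6 and 12.2 CPM in WT libraries. All KO day 3 libraries were below WT and all KO day 4 libraries above it. For Atg7 the log2 fold change was 1.20 between KO day 4 and KO day 3 (SE 0.25, edgeR adjusted p = 0.013; -0.35 with library size alone), 0.56 at KO day 4 against WT (edgeR adjusted p = 0.12) and -0.64 at KO day 3 against WT (edgeR adjusted p = 0.23). Without KO day 3 replicate 2 the adjusted p between the KO days was 0.053.

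Atg2a (ENSMUSG00000024773, chromosome 19, 6241668 to 6262335, plus strand), which carries lipids to the growing membrane, had 11.5, 12.1 and 26.4 CPM in KO day 4 libraries, 5.71, 9.84 and 6.52 CPM in KO day 3 libraries and 12.6, 13.1 and 12.3 CPM in WT libraries. Here KO day 3 lay below both other groups, and KO day 4 lay to both sides of WT, with replicate 3 above it. The log2 fold change between KO day 4 and KO day 3 was 1.16 (SE 0.34, edgeR adjusted p = 0.049; -0.39 with library size alone), and 0.67 without KO day 4 replicate 3 (edgeR adjusted p = 0.15). The call was lost, with the direction kept, in 12 of 19 alternatives.

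The other 7 conjugation genes ranged in log2 fold change from -1.20 (Atg10, an E2-like enzyme) to 0.30 (Atg4d, an ATG8 protease) at KO day 4. Atg5, the protein that ATG12 is joined to, had 17.6 to 21.5 CPM at KO day 4, 22.2 to 26.0 CPM at KO day 3 and 25.3 to 29.6 CPM in WT, and its log2 fold change at KO day 4 was -0.45 (SE 0.18, edgeR adjusted p = 0.097). Atg4b, the main ATG8 protease, was below WT in all 6 KO libraries, with log2 fold changes of -0.35 at KO day 4 (edgeR adjusted p = 0.14) and -0.33 at KO day 3 (edgeR adjusted p = 0.34). Atg3 (-0.29 at KO day 4 and -0.24 at KO day 3), Atg12 (-0.13 and -0.25) and Atg16l1 (-0.12 and 0.04), which complete ATG8 lipidation, overlapped WT at both days.

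Among PI3P effectors and lipid carriers, Wipi2, which recruits ATG16L1, had 29.4 to 35.0 CPM at KO day 4, 32.0 to 42.0 CPM at KO day 3 and 34.6 to 39.5 CPM in WT. Vmp1, a scramblase of the endoplasmic reticulum, had log2 fold changes of -0.13 at KO day 4 and -0.17 at KO day 3, and Atg2b 0.09 and -0.37. Atg9a, the scramblase of the vesicles that seed the membrane, had 3.75, 2.70 and 0.672 CPM in KO day 4 libraries, 0.0853, 1.52 and 1.74 CPM in KO day 3 libraries and 3.53, 9.19 and 8.58 CPM in WT libraries. Its log2 fold change was -2.60 at KO day 3 (SE 0.77, edgeR adjusted p = 0.13), with 1 count in KO day 3 replicate 1, and 32.6% of its exon bases are shared with neighbouring genes, mostly Gm29253 on the same strand. Wipi1 had a log2 fold change of -1.56 at KO day 4 (SE 0.70, edgeR adjusted p = 0.13), and KO day 4 replicate 3 held 0 counts of it.

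The ULK initiation complex had no gene past the test in any comparison. Atg101, a subunit that stabilises the complex, had 23.8, 18.3 and 14.3 CPM in KO day 4 libraries, 28.6, 23.6 and 19.8 CPM in KO day 3 libraries and 26.8, 25.5 and 21.6 CPM in WT libraries. Atg13, the subunit that links the kinase to the rest, had 14.4, 15.4 and 29.8 CPM in KO day 4 libraries, 3.41, 13.2 and 8.79 CPM in KO day 3 libraries and 17.4, 16.4 and 15.1 CPM in WT libraries. The Atg13 libraries of KO day 3 lay below those of both other groups, and the log2 fold change between KO day 4 and KO day 3 was 1.20 (SE 0.42, edgeR adjusted p = 0.084). The kinases Ulk1 (0.40 at KO day 4 and -0.16 at KO day 3) and Ulk2 (0.64 and -0.42) and the scaffold Rb1cc1 (0.90 and 0.53) overlapped WT.

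The mitophagy receptors and Pink1 also had no gene past the test. Pink1, the kinase that marks damaged mitochondria, had 16.1, 15.6 and 27.8 CPM in KO day 4 libraries, 13.9, 17.7 and 12.5 CPM in KO day 3 libraries and 32.2, 29.9 and 26.6 CPM in WT libraries. Bnip3l, a receptor on the outer mitochondrial membrane, had 9.49, 19.2 and 6.94 CPM in KO day 4 libraries, 8.95, 14.3 and 8.68 CPM in KO day 3 libraries and 29.5, 23.1 and 21.4 CPM in WT libraries. Bnip3l was below WT in all 6 KO libraries and Pink1 in all but KO day 4 replicate 3. The adjusted p nearest to the threshold were 0.052 for Fundc1, another outer membrane receptor (log2 fold change -1.14 at KO day 4, SE 0.38), 0.056 for Bnip3l (-1.04 at KO day 4, SE 0.36) and 0.053 for Bnip3 (2.09 between KO day 4 and KO day 3, SE 0.63), all by edgeR. Bnip3 had 1.76 to 3.02 CPM at KO day 4, 0.256 to 0.867 CPM at KO day 3 and 1.17 to 2.10 CPM in WT. The share of counts from mitochondrially encoded genes, given above, was highest in the group where Fundc1 was lowest, and its part was not tested.

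**Figure D3:**
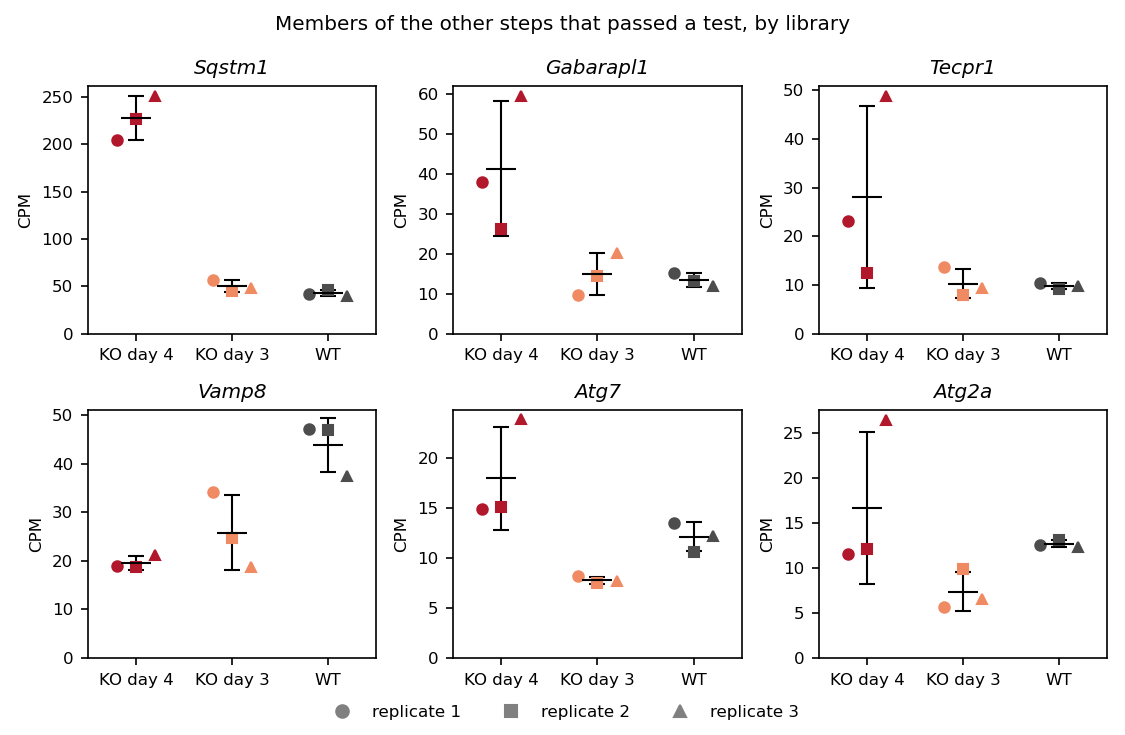
Levels in CPM (y axis, linear from 0) of the 6 called genes outside the PI3-kinase complex in the 3 libraries of KO day 4, KO day 3 and WT (marker shape gives the replicate; line and bars give mean ± SD). Sqstm1 and Gabarapl1 stand above both other groups at KO day 4 (Gabarapl1 turns negative with library size alone), and Vamp8 lies below WT in all KO libraries. All of the 6 but Vamp8 have their highest library in KO day 4 replicate 3.

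The 45 genes differed in how closely their libraries repeated. The SD within groups of log2(CPM + 1) ranged from 0.08 for Tax1bp1 to 0.94 for Nbr1, with Atg4b (0.10), Atg5 (0.13) and Sqstm1 (0.14) next to Tax1bp1. Map1lc3b, Stx17 and Atg9a were given above by library after their values were seen, as was Nbr1. They exceeded the spread of 95.7%, 94.2% and 93.1% of tested genes with a mean CPM of at least 1. That minimum holds for every share of genes compared by spread here. KO day 3 replicate 1, the library with the smallest total, was the lowest of its group in 23 of the 45 genes, and it was the lowest in 45.1% of all tested genes. KO day 4 replicate 3 was the highest of its group in 19 of the 45 genes (35.2% of all tested genes) and the lowest in 15 (42.3%), and it had 6 of the 45 under 10 counts. With both of these libraries left out, 8 genes passed at KO day 4 against WT (3 higher and 5 lower, beside 30.1% of all genes tested there), 5 passed at KO day 3 (all lower, beside 4.73%) and 3 passed between the KO days (2 higher and 1 lower, beside 10.2%).

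**Figure D4:**
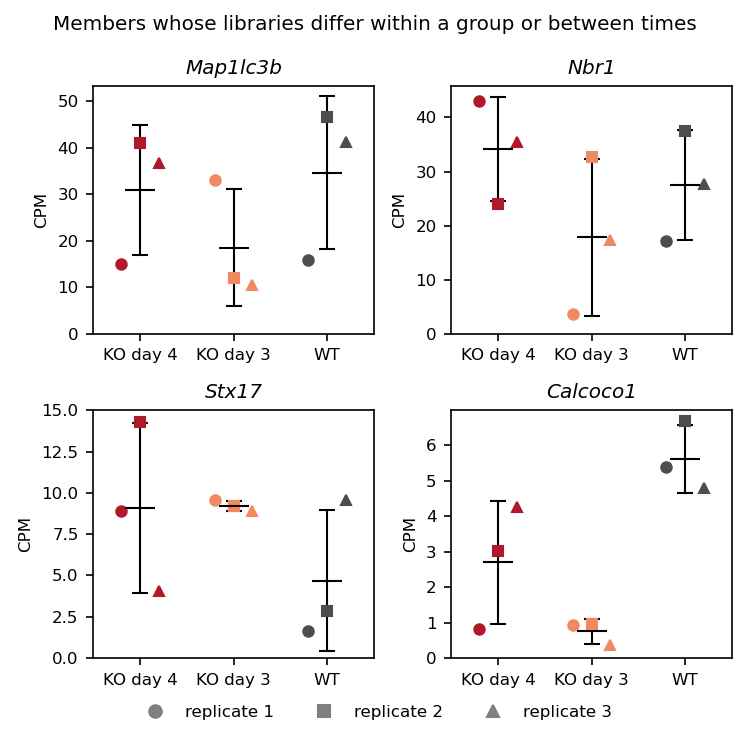
Levels in CPM (y axis, linear from 0) of 4 genes, picked after their values were seen, in the 3 libraries of KO day 4, KO day 3 and WT (marker shape gives the replicate; line and bars give mean ± SD). Map1lc3b and Stx17 have 1 library apart within a group, and Nbr1 is spread from 3.58 to 32.6 CPM within KO day 3. Calcoco1 is at or below 0.954 CPM in all 3 KO day 3 libraries and at or above 4.81 CPM in WT.

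Levels can be compared between genes only per exon length, here as TPM, counts per exon length scaled to a common sum of nuclear genes. TPM were not scaled by TMM as the CPM were. They therefore serve to compare genes within a group, and changes between groups are read from the CPM. In WT, Gabarap was at 164 ± 17.3 TPM, followed by Vamp8 at 62.0 ± 8.36, Atg101 at 50.4 ± 5.48, Gabarapl2 at 43.0 ± 8.83 and Sqstm1 at 42.1 ± 7.55 TPM (SD, n = 3). Vamp8 and Atg101 differ by less than the sum of their SDs, and so do Atg101, Gabarapl2 and Sqstm1. The lowest were Rb1cc1 at 1.02 ± 0.157 and Epg5 at 1.19 ± 0.891 TPM, which do not differ beyond their spread. Within the PI3-kinase complex the WT levels were 19.6 ± 4.22 TPM for Nrbf2, 19.2 ± 3.61 for Becn1, 15.1 ± 2.28 for Pik3c3, 6.91 ± 1.77 for Ambra1, 5.36 ± 1.19 for Atg14, 3.45 ± 0.629 for Pik3r4 and 2.70 ± 0.996 for Uvrag. In KO day 4 libraries Sqstm1 was the highest of the 45 at 109 ± 6.57 TPM, ahead of Gabarap at 69.9 ± 4.84 TPM (SD, n = 3).

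**Figure D5:**
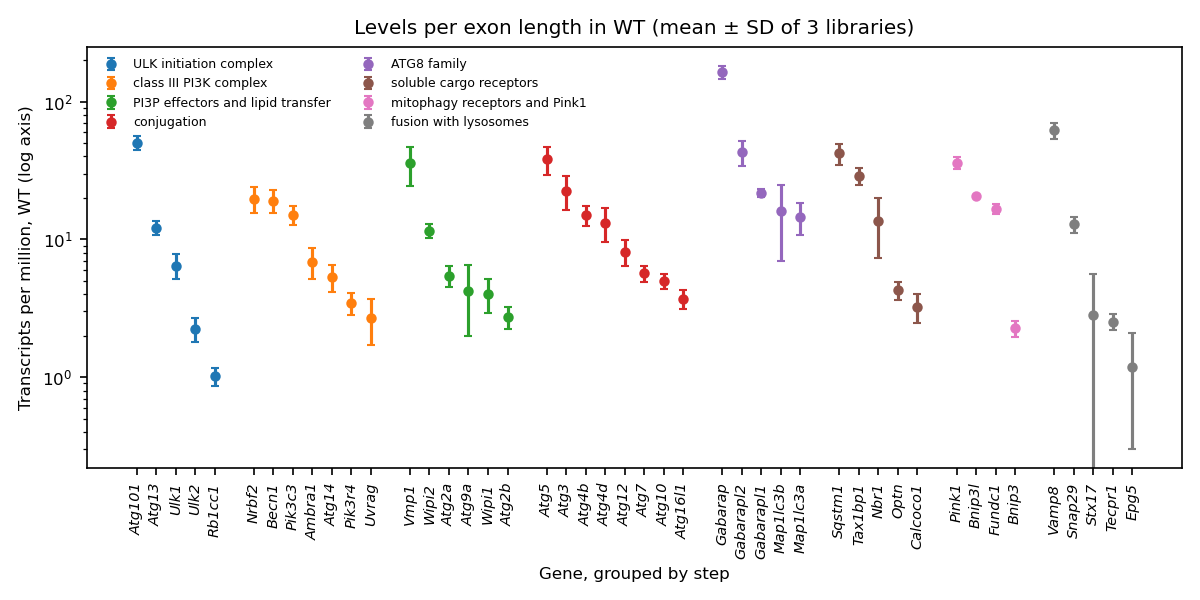
Levels in WT as TPM of nuclear genes (y axis, log scale) for the 45 genes, grouped by step along the x axis, with points at the mean and bars of ± SD over 3 libraries. Gabarap is the highest at 164 TPM and Rb1cc1 the lowest at 1.02 TPM; the lower bar of Stx17, whose SD (2.83) is as large as its mean (2.81), runs off the log axis.

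A list of 48 other autophagy genes was set beside the 45. Of these, 42 were tested, and the rest are not reported here. At KO day 4 against WT, 4 were higher and 6 lower (23.8%, against 22.5% of all tested genes), with a median log2 fold change of 0.00. None passed at KO day 3 by edgeR, where 8 had an unadjusted p under 0.05 (15.8% of all tested genes did), DESeq2 called 5 (6.53% of all) and limma voom 10 (10.6% of all). Between the KO days 4 were higher and 2 lower (14.3%, against 12.5% of all tested genes, 6.52% higher and 6.03% lower).

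Of the tethering and fusion genes in that list, Vps41, Vps16 and Vps39, subunits of the HOPS complex that tethers lysosomes, were lower at KO day 4. They are 3 of 9 tested (33.3%, against 11.5% of all tested genes lower). Vps41 had 8.79, 9.54 and 3.36 CPM in KO day 4 libraries, 7.59, 11.5 and 8.83 CPM in KO day 3 libraries and 19.8, 20.0 and 24.6 CPM in WT libraries. Every KO library lay below WT, and the log2 fold change was -1.54 at KO day 4 (SE 0.34, edgeR adjusted p = 0.0090) and -1.20 at KO day 3 (edgeR adjusted p = 0.11). For Vps16 the log2 fold change at KO day 4 was -1.10 (SE 0.26, edgeR adjusted p = 0.012), and all 3 libraries of KO day 4 were below those of both other groups.

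Of 13 other receptors and adaptors tested, Tollip was higher and Fkbp8, Nipsnap1 and Nipsnap2 were lower at KO day 4 (30.8%, against 22.5% of all tested genes). Nipsnap1, a mitochondrial protein that marks damaged mitochondria for receptors, had 23.3, 20.0 and 18.4 CPM in KO day 4 libraries, 62.2, 53.4 and 43.1 CPM in KO day 3 libraries and 61.6, 68.2 and 75.2 CPM in WT libraries. KO day 4 lay apart below both other groups, at a log2 fold change of -1.73 against WT (SE 0.19, edgeR adjusted p = 0.00035). Tollip, a ubiquitin-binding adaptor, had a log2 fold change of 0.90 (SE 0.22, edgeR adjusted p = 0.014). The p53-induced Trp53inp1 and its homologue Trp53inp2, which bind ATG8 proteins, were higher at KO day 4 by 2.17 (SE 0.52, edgeR adjusted p = 0.014) and 2.01 (SE 0.26, edgeR adjusted p = 0.00073) on the log2 scale. Trp53inp2 had 19.9 to 27.2 CPM at KO day 4, 7.76 to 8.87 CPM at KO day 3 and 4.2 to 7.07 CPM in WT. Atg9b, the relative of Atg9a, was called higher at 0 to 3.34 CPM at KO day 4, with 0.737 to 1.10 CPM at KO day 3 and 0 to 0.314 CPM in WT, levels too low for a useful fold.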

How the data were processed

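The 9 libraries were grouped by their titles. The table that the authors deposited holds raw counts by Ensembl identifier, not normalized. Per the submitters' processing notes, it rests on HISAT2 2.0.4 and GRCm38. The counter, its annotation and whether it used strand are not given in the sources used here, so reads of overlapping genes cannot be told apart. Besides the overlaps given above, exon bases shared with other genes made up 22.3% of Bnip3, 19.3% of Atg4d and 17.6% of Uvrag. Symbols, coordinates and exon lengths came from GENCODE M21 and promoters from RefSeq on GRCm38.p6.

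Counts were tested with edgeR 4.0.16 (R 4.3.3): TMM, filterByExpr (10 counts per library, 15 in total), the quasi-likelihood F-test over all 9 libraries in 1 fit, Benjamini-Hochberg adjustment over 13405 genes, threshold 0.05. The SE is the absolute log2 fold change divided by the square root of F. CPM use the TMM-scaled library size, and marker sums use CPM of nuclear genes. TPM divide counts by the union exon length and are scaled to the nuclear sum of each library, without TMM. Since no label names separate animals, p-values cover only the spread between libraries, which may be technical. Libraries of a group all differed beyond counting noise (chi-square over its degrees of freedom, 12.8 to 89.2). The script was tested on simulated data.

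Those of the 45 genes past the threshold in any comparison are given by library, as are the 2 of highest mean CPM in a step without such a gene; of the other autophagy genes, up to 6 with the smallest adjusted p at KO day 4 are named by values. The 45 genes, the other lists and the tests were chosen with earlier results of these data known, which included Sqstm1, Pik3c3, Pik3r4 and Vamp8, so these are not independent findings. Alternatives were RLE factors, library size alone, no filter or a minimum mean CPM of 5, DESeq2 1.42.0, voom of limma 3.58.1 with quality weights, mitochondrial genes left out, only the groups compared, a replicate block, and libraries left out.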

Additional observations from a re-analysis of the deposited data

Results flagged for a closer look

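In 5 genes the KO day 4 effect differed from the KO day 3 effect (11.1% of the 45, against 12.5% of all tested genes). Both effects use the same WT libraries, so the test of that difference is KO day 4 against KO day 3. On the log2 scale, the effect at KO day 4 exceeded the one at KO day 3 by 2.18 in Sqstm1 (edgeR adjusted p = 7.4e-05), 1.46 in Gabarapl1 (edgeR adjusted p = 0.017), 1.45 in Tecpr1 (edgeR adjusted p = 0.043), 1.20 in Atg7 (edgeR adjusted p = 0.013) and 1.16 in Atg2a (edgeR adjusted p = 0.049). KO day 4 lay above KO day 3 in all libraries of Sqstm1, Gabarapl1, Atg7 and Atg2a, while Tecpr1 overlapped. Sqstm1, Gabarapl1 and Tecpr1 had values near WT at KO day 3, with log2 fold changes of 0.23, 0.15 and 0.06. Atg7 and Atg2a were instead below WT in all KO day 3 libraries, while at KO day 4 Atg7 lay above WT and Atg2a to both sides of it, with no call against WT at either day. The markers of Paneth, mast, other immune, tuft, goblet, enteroendocrine and stromal cells and the mitochondrial share were highest at KO day 4 too, and those of stem cells and enterocytes lowest, and their part in these differences was not tested.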

How the results depend on the processing

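Sqstm1 (both comparisons), Pik3c3, Pik3r4 and Vamp8 stayed called in every alternative in which they were tested; Pik3r4 was not tested at a minimum mean CPM of 5. The size of the Sqstm1 rise did not hold with library size alone, at 0.50 against WT and 0.64 against KO day 3. With library size alone the median of all genes moved to -1.95 at KO day 4 against WT, -0.39 at KO day 3 and -1.54 between the KO days; calls among the 45 genes became 39, 6 and 30, and calls among the other autophagy genes 38, 3 and 31, beside 82.5%, 3.86% and 70.9% of all tested genes. Of the settings tried, that one alone turned the direction of called genes: Gabarapl1 to -0.30 against WT and -0.081 against KO day 3, Tecpr1 to -0.43 and -0.15, Atg7 to -0.35 and Atg2a to -0.39.

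Of the 45 genes, 0 were called at KO day 3 in the fit used, but 5 with no filter, 5 with DESeq2, 8 with voom, 4 with only the groups compared and 5 without KO day 3 replicate 1 and KO day 4 replicate 3, all lower. Other autophagy genes called there numbered 3, 5, 10, 2 and 4 under those settings. The share of all tested genes called was 1.35%, 6.53%, 10.6%, 2.57% and 4.73%, against 0.44%. Of these called genes, 174, 483, 942, 281 and 456 were lower and 143, 393, 481, 56 and 190 higher. Between the KO days, calls among the 45 were 8 with no filter, 12 with DESeq2, 3 with only the groups compared and 3 without both libraries (8.96%, 21.5%, 6.56% and 10.2% of all tested genes); among the other genes they were 10 with DESeq2 and 2 with only the groups compared. DESeq2 and voom each called 10 of the 45 at KO day 4, against 7, and 30.2% and 30.5% of all tested genes, against 22.5%.

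Leaving out 1 library gave 5 to 8 calls at KO day 4, 0 to 2 at KO day 3 and 1 to 8 between the KO days among the 45 (1 without KO day 3 replicate 2, 2 without KO day 4 replicate 3, 8 without KO day 4 replicate 1), and 5 to 14, 0 to 2 and 2 to 4 among the others. The share of all tested genes called ranged over these fits from 11.6% to 27.7%, 0% to 2.49% and 4.71% to 13.1%. Leaving out a library of a comparison also leaves fewer libraries to estimate the spread, and the cause of the other shifts was not tested.

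Same-numbered libraries of different groups correlated in their deviations by -0.06 to 0.20, over 0.1 in 2 of 9. Differently numbered ones correlated by -0.16 to 0.10, over 0.1 in 1 of 18. Between KO day 3 and WT the same-numbered values were 0.15, 0.08 and 0.20, and the differently numbered ones ran from -0.16 to -0.02. Deviations were taken from each group's mean, so higher same-numbered values push the differently numbered ones down, and these are not separate evidence. The labels give replicate numbers but no pairing, so whether KO day 3 and WT libraries are paired cannot be told. With the replicate block, 9, 0 and 4 of the 45 genes and 8, 0 and 3 of the others were called (20.0%, 0.0671% and 11.5% of all tested genes), and Atg2a and Tecpr1 lost their calls between the KO days (adjusted p = 0.071 and 0.056). Depth limited the low genes most: 6 of the 45 were under 10 counts in KO day 4 replicate 3.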
